A study of Mus musculus with 4 samples.

Results

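The 10 genes described here make, use and export glutathione: Slc7a11, Gclc, Gclm, Gss, Gsr, Gsta3, Gsta4, Gstm1, Abcc1 and Abcc4. They were taken by gene symbol, and each had 1 probe set among the 35556 on the array, so they are 10 of 19938 genes with a probe set of a single symbol. Their signals were measured on 4 arrays of mouse bone marrow cells, which were kept for 6 days in medium with GM-CSF at 20 ng/ml. GM-CSF is a cytokine that drives marrow progenitors towards macrophages and dendritic-type cells. The 4 groups were Bach1 (-/-) cells given heme, Bach1 (-/-) cells given vehicle, Bach1 (+/+) cells given heme and Bach1 (+/+) cells given vehicle. All came from the B6 background. This account follows the sample labels, while the series' design text names another cell source, sorted progenitors of fetal liver chimeras. Heme was given at 40 µM (written with a lower-case m in the labels) and the vehicle was 0.15 M NaCl with 10% NH4OH. RNA was taken 24 hours later from the cells that still adhered, so cells that had floated off were not measured. The age and number of the mice, and the part of Bach1 that was deleted, do not appear in the labels.

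Glutathione is a tripeptide of glutamate, cysteine and glycine, and it is the main small thiol of the cytosol. Slc7a11 brings in cystine as the source of cysteine, glutamate-cysteine ligase (Gclc with its modifier Gclm) and Gss build the peptide, Gsr returns the oxidised form to the reduced one with NADPH, transferases join it to reactive compounds, and Abcc transporters carry the conjugates out. Many of these genes are known targets of NRF2, which binds antioxidant response elements as a dimer with a small Maf protein. Bach1 is a repressor that can occupy the same kind of element with the same Maf partners and leaves DNA when it binds heme.

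Each group held 1 array. There is therefore no replicate error, no p-value and no test in what follows, and every difference is a difference between single arrays. A gene counted as at level when the brighter of the arrays in a comparison read at least 30.96, which is the median over every value in the table, and as higher or lower at 2-fold or more. Among all genes at level, the robust SD of the log2 difference between 2 arrays lay between 0.25 and 0.28, a mix of technical noise and real differences. Array medians lay between 30.4 and 31.4. Signals of different probe sets are not comparable as amounts, so levels are compared between arrays only.

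The Bach1 probe set read 204 and 211 on the labelled knockout arrays with heme and vehicle, against 264 and 212 on the wild-type arrays. It did not separate the genotypes, and no source says whether its probes lie in the deleted part, so it checks nothing and the arrays are called labelled knockout. Hmox1, the heme oxygenase gene and a known Bach1 target, read 9047 in labelled knockout vehicle against 1827 in wild-type vehicle. All 11 measured macrophage markers were at level, as were 7 of 11 dendritic cell markers and 0 of 8 lymphocyte markers. In such bulk cultures, fewer cells of a type and less RNA per cell cannot be told apart.

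Upstream sequences were available in the RefSeq promoter table of build GRCm38.p6 for 6 of the 10 genes, in 8 windows. Each window below covers the 250 bases before a listed start site, 5′ to 3′ on the gene's strand. Gclm and Gsta3 are shown because they passed 2-fold with heme in both genotypes, Abcc4 because it was 2-fold in no comparison, and Slc7a11, chosen after its values were seen, because its signal with heme differed 2-fold between genotypes. Capitals mark matches to the antioxidant response element core TGACNNNGC in Gclm, Gsta3 and Abcc4, and to the amino acid response element TGATGCAAA in Slc7a11, the last a motif chosen after the sequence was seen. Both strands were searched, and a match on the opposite strand appears as its reverse complement.
Gclm (chr3:122245307-122245556, plus strand): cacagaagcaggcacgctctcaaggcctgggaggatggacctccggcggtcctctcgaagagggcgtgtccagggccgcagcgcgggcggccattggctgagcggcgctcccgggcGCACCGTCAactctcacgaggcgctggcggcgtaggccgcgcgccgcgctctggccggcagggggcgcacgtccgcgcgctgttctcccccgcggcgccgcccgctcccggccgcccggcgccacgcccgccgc
Gsta3 (chr1:21240335-21240584, plus strand): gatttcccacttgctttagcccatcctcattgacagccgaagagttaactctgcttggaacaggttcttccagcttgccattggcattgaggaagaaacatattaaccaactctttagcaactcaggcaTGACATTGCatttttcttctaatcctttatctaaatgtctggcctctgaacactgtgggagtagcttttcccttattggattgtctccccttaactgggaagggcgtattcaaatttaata
Abcc4 (chr14:118706220-118706469, minus strand): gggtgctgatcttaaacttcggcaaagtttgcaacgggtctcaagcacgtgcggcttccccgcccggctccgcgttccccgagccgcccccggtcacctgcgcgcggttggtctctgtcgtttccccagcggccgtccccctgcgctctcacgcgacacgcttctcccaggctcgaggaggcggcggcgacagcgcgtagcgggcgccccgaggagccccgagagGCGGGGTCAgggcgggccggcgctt
Slc7a11 (chr3:50443614-50443863, minus strand): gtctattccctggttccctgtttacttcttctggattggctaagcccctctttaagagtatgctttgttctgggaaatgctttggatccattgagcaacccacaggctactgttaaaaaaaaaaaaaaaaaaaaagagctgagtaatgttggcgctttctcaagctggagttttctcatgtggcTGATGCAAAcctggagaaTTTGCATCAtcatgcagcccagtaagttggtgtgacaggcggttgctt

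The element TGACNNNGC was found once in Gclm, as TGACGGTGC on the opposite strand beginning 134 bases before the start, and once in Gsta3, as TGACATTGC beginning 121 bases before it. Abcc4 held it as TGACCCCGC on the opposite strand, 25 bases before the start, and the window of its other listed start held it as TGACTCTGC. The windows of Gss, Gstm1 and Slc7a11 did not hold these letters. Of 32841 windows of the same length, 10.2% did. The windows of Gclm and Gsta3, over 2-fold higher with heme, and of Abcc4, which was not, held a match, while that of Slc7a11, over 2-fold higher with heme in wild type, did not. A second motif, TGANTCA, the core shared by AP-1 and NF-E2 type sites, can overlap the first. It was in none of the 8 windows and in 6.75% of all windows. In Slc7a11, TGATGCAAA stood 66 bases before the start and again, on the opposite strand, 48 bases before it. Such elements are bound by ATF4, the transcription factor of the amino acid stress response, and 0.225% of all windows held one or more. These matches describe letters and not binding.

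With heme, 4 of the 10 genes were at least 2-fold higher in the labelled knockout (Gclc, Gclm, Gsta3 and Abcc1) and 4 were in wild type (Gclm, Slc7a11, Gsta3 and Abcc1), and none was 2-fold lower in either. In each genotype 9 of the 10 were at level, all but Gsta4. Of all genes at level, 1.2% were 2-fold higher and 0.452% lower with heme in the labelled knockout, and 1.17% higher and 0.891% lower in wild type. The median log2 difference of the 10 genes was 0.74 in the labelled knockout and 0.97 in wild type, against medians of 0.02 and -0.01 over all genes at level. Gclm, Gsta3 and Abcc1 passed 2-fold in both genotypes. For 8 of the 10, both heme arrays stood above both vehicle arrays, a pattern found in 21.4% of genes at level on any array. The exceptions were Gstm1, whose labelled knockout vehicle array was above its wild-type heme array, and Gsta4, whose heme arrays were both below its vehicle arrays (19.5% of genes at level did the same) at signals under the level threshold.

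**Figure D1:**
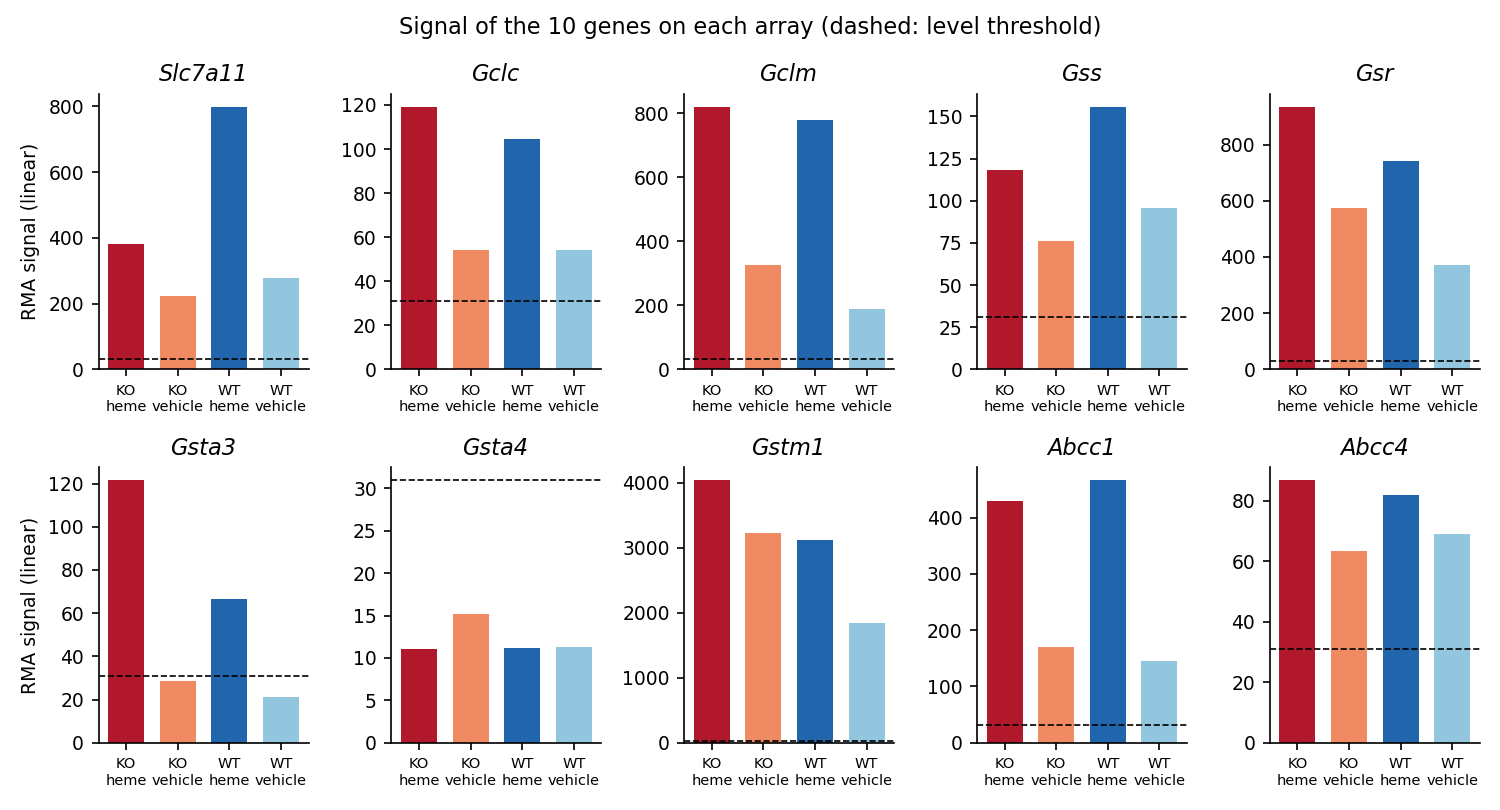
Linear RMA signal of each of the 10 genes (one panel per gene, each with its own y axis from 0), with 1 bar per array and the level threshold (30.96) as a dashed line. The heme bars of Gclm (820.2 and 777) stand above its vehicle bars (326 and 188), while all 4 bars of Gsta4 lie under the dashed line.

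Cystine import held the largest genotype difference among the 10 genes with heme. Slc7a11, the transport chain of the cystine-glutamate exchanger, read 381 with heme and 222 in vehicle on the labelled knockout arrays, against 799 and 277 on the wild-type arrays. The wild-type heme array was the highest of the 4 and stood 2-fold above every other array. The heme response was 1.72-fold in the labelled knockout (log2 0.78) and 2.89-fold in wild type (log2 1.53). In wild type this was the 37th largest increase of 10772 genes at level, and in the labelled knockout the 273rd of 10843.

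Slc3a2, the heavy chain that carries Slc7a11 to the cell surface and also serves other amino acid transporters, did not share that order. It read 1211 with heme and 578 in vehicle in the labelled knockout, against 1056 and 756 in wild type. Its heme response was 2.09-fold in the labelled knockout and 1.40-fold in wild type, so the larger response of the pair's light chain was in wild type and that of its heavy chain in the labelled knockout.

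Of the ligase that makes gamma-glutamylcysteine, the rate-limiting step of glutathione synthesis, the modifier subunit had the larger heme response. Gclm read 820.2 with heme and 326 in vehicle in the labelled knockout, against 777 and 188 in wild type. Both heme arrays were close to each other, and the vehicle arrays lay apart, with wild type lowest. The response was 2.51-fold in the labelled knockout (log2 1.33) and 4.13-fold in wild type (log2 2.05), where it ranked 15th among genes at level. The catalytic subunit Gclc read 119 with heme and 54.1 in vehicle in the labelled knockout, against 105 and 54.1 in wild type. Its vehicle arrays read alike. Its heme response was 2.21-fold in the labelled knockout and 1.93-fold in wild type, just past 2-fold in one and just short of it in the other. With 32 added to each signal, the labelled knockout response of Gclc was 1.76-fold and no longer counted.

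Gss, which adds glycine in the second step of synthesis, read 118 with heme and 76.4 in vehicle in the labelled knockout, against 156 and 95.7 in wild type. Both heme values exceeded both vehicle values, and both labelled knockout values were below the wild-type value of the same treatment. The response was 1.55-fold in the labelled knockout and 1.63-fold in wild type. Gsr, the glutathione reductase, read 935 with heme and 574 in vehicle in the labelled knockout, against 740.3 and 372 in wild type. Here the labelled knockout was above wild type in both treatments, and the response was 1.63-fold in the labelled knockout and 1.99-fold in wild type. With lowess centring, wild-type Gsr reached 2-fold.

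Among the transferases, the alpha-class gene Gsta3 had the largest heme response of the 10 genes in the labelled knockout. It read 122 with heme and 28.6 in vehicle in the labelled knockout, against 66.5 and 21.1 in wild type. Both vehicle arrays were under the level threshold and both heme arrays above it. The response was 4.25-fold in the labelled knockout, the 4th largest of 10843 genes at level, and 3.15-fold in wild type, the 28th largest. How far the vehicle values lie above background is unknown: with 32 added to each signal the responses were 2.53-fold and 1.85-fold, and wild type no longer counted as 2-fold.

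Gstm1, a mu-class transferase, was the gene of the 10 in which genotype and not heme gave the larger average difference. The 2 averages were close, log2 0.59 for genotype and 0.54 for heme. Its signal was 4042 with heme and 3234 in vehicle in the labelled knockout, against 3126 and 1843 in wild type. The wild-type vehicle array alone stood low. The heme response was 1.25-fold in the labelled knockout and 1.70-fold in wild type. Gsta4, which conjugates the lipid peroxidation product 4-hydroxynonenal, read 11.0 with heme and 15.2 in vehicle in the labelled knockout, against 11.1 and 11.3 in wild type, below the level threshold on all 4 arrays. No call was made for it in any comparison.

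Export differed between the 2 transporters. Abcc1 (MRP1), which carries glutathione conjugates and oxidised glutathione out of cells, read 429.7 with heme and 170.3 in vehicle in the labelled knockout, against 467 and 145 in wild type. The pair of heme arrays and the pair of vehicle arrays each lay close together. Its response was 2.52-fold in the labelled knockout and 3.22-fold in wild type. Abcc4 (MRP4), an exporter of cyclic nucleotides and other organic anions, read 86.7 with heme and 63.4 in vehicle in the labelled knockout, against 81.9 and 69.0 in wild type. Its responses of 1.37-fold and 1.19-fold were inside the central 95% of genes at level in both genotypes.

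**Figure D2:**
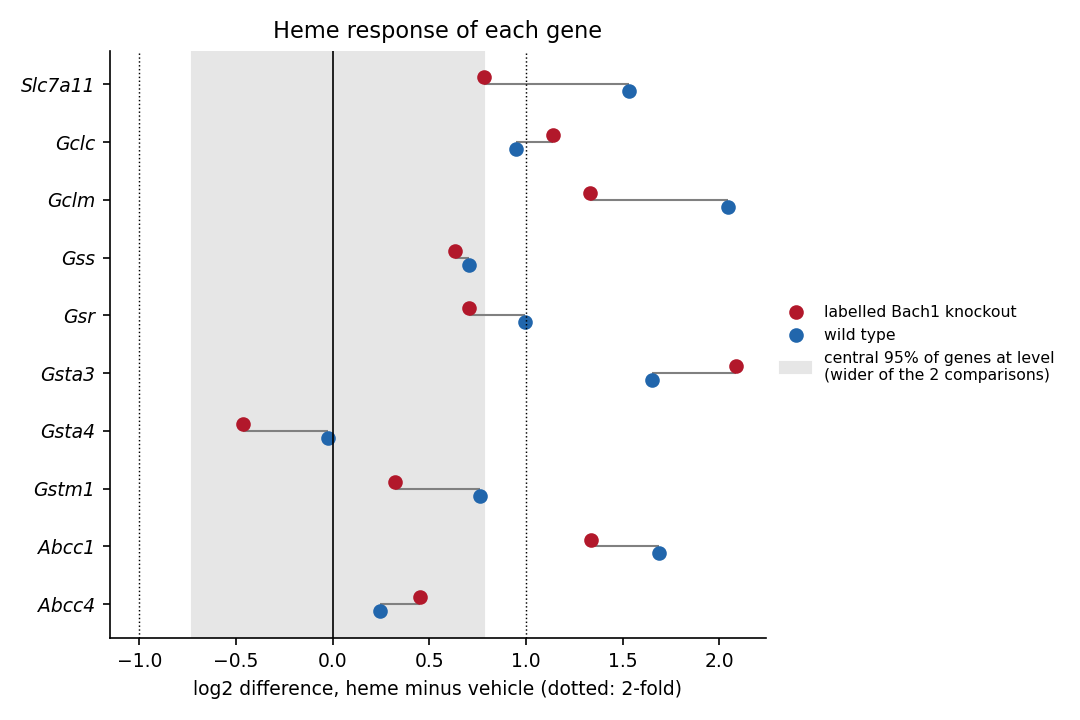
Log2 difference between heme and vehicle for each of the 10 genes, in the labelled Bach1 knockout (red) and in wild type (blue), with 1 array per group. The grey band is the central 95% of genes at level, and Gclm, Gsta3 and Abcc1 lie to the right of the 2-fold line in both genotypes.

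Most neutrophil markers also read higher with heme: 11 of 13 at level in the labelled knockout and 12 of 12 in wild type. Of all genes at level, 52.4% and 48.6% did. The summed signal of the list was 11892 with heme and 9370.4 in vehicle in the labelled knockout, against 14551 and 11173 in wild type. Bright genes carry this sum: S100a8 alone read 4381 and 3213 in the labelled knockout, against 5613 and 4243 in wild type. At 2-fold, 0 of 13 markers at level were higher in the labelled knockout and 4 of 12 in wild type (Cxcr2, Mmp9, Retnlg and Prtn3). The shares of all genes at level were 1.2% and 1.17%. Of the early granule genes, Prtn3 read 36.4 with heme and 38.0 in vehicle in the labelled knockout, against 48.7 and 21.2 in wild type, while Elane and Mpo stayed between 22.2 and 41.9 on all arrays, and none of the lists' signals is 0 on this scale. Macrophage markers summed to 19545 with heme and 20083 in vehicle in the labelled knockout, against 18420.3 and 21115 in wild type. Lyz2 alone read 10122 and 10705 in the labelled knockout, against 9990 and 10118 in wild type. With heme, 4 of the 11 macrophage markers at level read higher in the labelled knockout and 0 in wild type, beside the same 52.4% and 48.6%. Of the 11, 4 were 2-fold lower with heme in wild type (Fcgr1, C1qa, C1qb and C1qc), where 0.891% of all genes at level were. The part of a changed cell mix in the values of the glutathione genes was not tested.

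The labelled knockout was next set against wild type. In vehicle, none of the 10 genes was 2-fold higher or lower, where 0.525% of all genes at level were higher and 1.14% lower. The largest differences were those of Gstm1 (log2 0.81), Gclm (0.79) and Gsr (0.63), each higher in the labelled knockout, and Gstm1 and Gclm ranked 114th and 117th from the top of 10859 genes. Gsta3 and Gsta4 were under the level threshold. Gclc differed by 0.00 and Abcc1 by 0.23, and Slc7a11 and Gss both read lower in the labelled knockout, each by -0.32. The median was 0.33 over the 10 genes and 0.11 over the 8 at level, against -0.02 over all genes at level. With 32 added to each signal, the median of the 10 was 0.16. For comparison, Hmox1 differed by log2 2.31 between the same arrays.

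With heme in both cultures, 1 of the 10 genes was 2-fold lower in the labelled knockout and none was higher, beside 0.973% and 0.519% of all genes at level. The 1 gene was Slc7a11, which read 381 in the labelled knockout against 799 in wild type, 2.10-fold lower and 93rd from the bottom of 10790 genes. Gsta3 was higher, with 122 in the labelled knockout against 66.5 in wild type (1.83-fold). For the remaining 8 genes, Gsta4 below level among them, the log2 difference lay between -0.40 (Gss) and 0.37 (Gstm1), and the median of the 10 was 0.08. The genotypes differed at other genes on the same arrays: 6 of the 7 dendritic cell markers at level, namely Cd74, H2-Eb1, H2-Ab1, H2-Aa, Ciita and Ccr7, were 2-fold lower in the labelled knockout both with heme and in vehicle. Of all genes at level, 0.973% were lower with heme and 1.14% in vehicle. Itgax, the other marker at level, differed by log2 -0.44 with heme and -0.46 in vehicle. Flt3, Zbtb46, Cd209a and Dpp4 of the same list were below the level threshold on all 4 arrays. Of the 11 macrophage markers, C1qc was 2-fold lower in the labelled knockout with heme, and Fcgr1, C1qa, C1qb and C1qc were in vehicle. Of the 13 neutrophil markers at level, Cxcr2 was 2-fold lower with heme and Retnlg 2-fold higher in vehicle. Summed, the dendritic cell markers read 2967 with heme and 3621 in vehicle in the labelled knockout, against 8443 and 10762 in wild type. Bright genes carry this sum: Cd74 alone read 829 and 877 in the labelled knockout, against 2879 and 3399 in wild type. The part of these cell types in the genotype differences of the 10 genes was not tested.

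**Figure D3:**
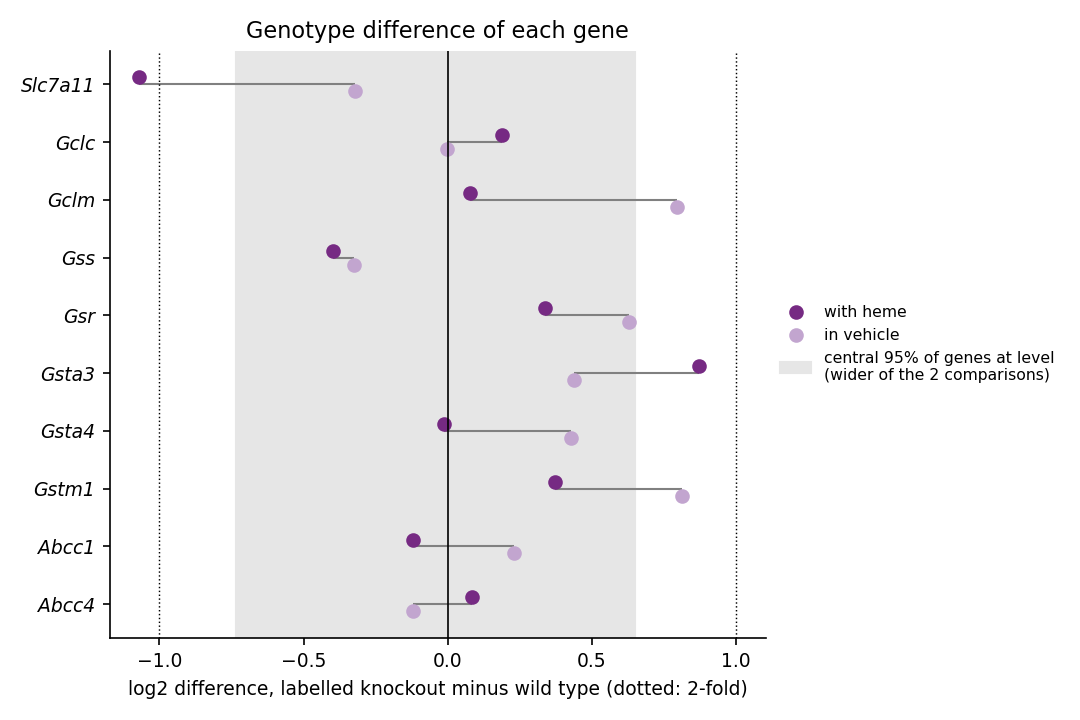
Log2 difference between the labelled Bach1 knockout and wild type for each of the 10 genes, with heme (dark) and in vehicle (light), 1 array per group. With heme, Slc7a11 lies left of the lower 2-fold line at -1.07, and no gene lies right of the upper one.

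The 2 heme responses were then subtracted, labelled knockout minus wild type, which asks how far the response depends on genotype. None of the 10 genes differed 2-fold, against 1.17% of genes at level above and 0.879% below. The median of the 10 was -0.32 (-0.29 over the 9 at level), against 0.03 over all genes at level. Slc7a11 (-0.75) and Gclm (-0.72) had the most negative values, so their responses were 1.68-fold and 1.64-fold smaller in the labelled knockout. They reached that by different arrays: at Gclm the heme arrays were alike (820.2 in the labelled knockout, 777 in wild type) and the vehicle arrays apart (326 and 188), while at Slc7a11 the vehicle arrays were nearer (222 and 277) and the heme arrays apart (381 and 799). Gsta3 (0.43), Abcc4 (0.20) and Gclc (0.19) had larger responses in the labelled knockout. At Hmox1 the same subtraction gave -2.24.

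Splitting each gene's 4 values into an average heme response, an average genotype difference and the change of one with the other, heme was the largest part in 8 of the 9 genes at level and genotype in 1, Gstm1. Among all 11155 genes at level on any array, heme was the largest part in 41.2%, genotype in 35.2% and the change between them in 23.6%. Average heme responses ran from log2 0.35 for Abcc4 to 1.87 for Gsta3 among the 9 genes at level, with Gclm at 1.69 and Abcc1 at 1.51. The place of Gsta3 rests on vehicle signals below the level threshold: with 32 added to each signal its average was 1.12, below Gclm (1.56) and Abcc1 (1.34). The average genotype difference was lowest for Slc7a11 (-0.69). It was 0.65 for Gsta3 and 0.59 for Gstm1, an order that turned with repeated quantile normalization, with lowess centring and with 32 added (0.42 and 0.58).

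Other genes of glutathione metabolism were read from 4 lists with 68 measured genes in all. With heme, 1 of 46 at level was 2-fold higher in the labelled knockout (Slc3a2) and 0 lower, and 4 of 48 were higher in wild type (Gstm2, Mgst2, Abcc3 and Abcc5) and 2 lower (Anpep and Gpx3). The shares of all genes at level were 1.2% higher and 0.452% lower in the labelled knockout, and 1.17% higher and 0.891% lower in wild type. Over all measured genes, list medians in the labelled knockout and wild type were 0.00 and -0.02 for supply and turnover, 0.08 and 0.24 for transferases, 0.11 and 0.00 for peroxidases and related enzymes, and -0.07 and 0.02 for ABC transporters. Over the genes at level they were 0.13 and 0.08, 0.19 and 0.30, 0.10 and 0.10, and -0.01 and 0.22, in the same order. The medians of the 10 genes were larger, 0.74 and 0.97 over all and 0.78 and 0.99 at level. The 10 genes and the lists were chosen with earlier results of these data known, so this gap is a description and no test.

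**Figure D4:**
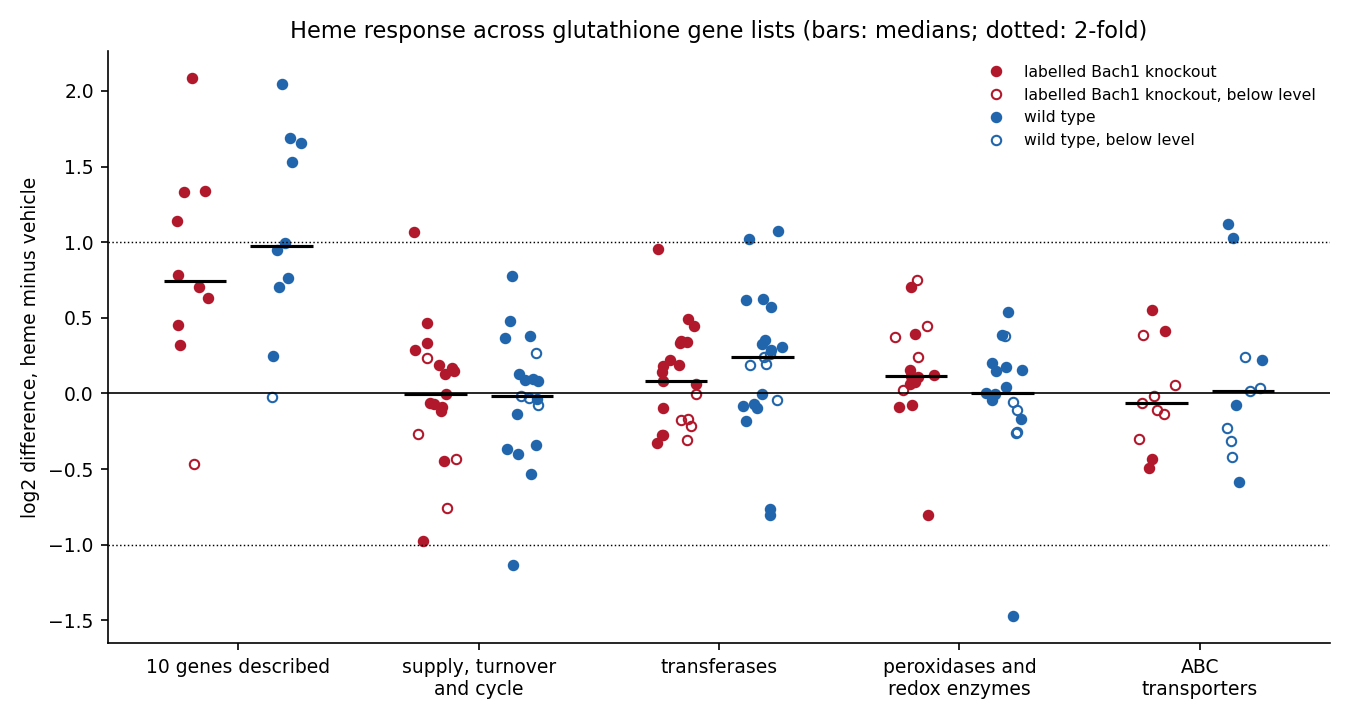
Log2 difference between heme and vehicle for the 10 genes described and for 4 lists of other glutathione genes, in the labelled knockout (red) and in wild type (blue). Open circles are genes below the level threshold, bars are medians, and the medians of the other lists lie between -0.07 and 0.24.

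In the list of transferases, 3 other mu-class genes of the Gstm cluster on chromosome 3, Gstm2, Gstm3 and Gstm5, ordered the arrays as Gstm1 did. Gstm2 read 304 with heme and 239 in vehicle in the labelled knockout, against 223 and 106 in wild type. The wild-type vehicle array alone was low, so that Gstm2 had a heme response of 1.27-fold in the labelled knockout and 2.11-fold in wild type. In vehicle it was 2.26-fold higher in the labelled knockout. Of the 47 genes of the 4 lists at level there, Gstm2 alone reached 2-fold. Among all genes at level, 0.525% were higher in that comparison and 1.14% lower. Gstm3, by the brighter of its 2 probe sets, read 138 and 122 in the labelled knockout, against 113 and 73.7 in wild type. Gstm5 read 126 and 99.8 in the labelled knockout, against 80.9 and 64.4 in wild type. Gstm4, which lies next to Gstm1, ordered them otherwise and read 113 and 137 in the labelled knockout, against 112 and 118 in wild type. So did Gstm7, at 37.7 and 33.0 in the labelled knockout, against 35.4 and 28.6 in wild type. Gstm6 was below the level threshold on all 4 arrays. These genes are close paralogs, and probes of one may pick up RNA of another, so their signals are not independent. With 32 added, none of the transferases of this list reached 2-fold.

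Mgst2, a membrane-bound enzyme that can make leukotriene C4, read 1819 with heme and 938 in vehicle in the labelled knockout, against 1561 and 768 in wild type, a response of 1.94-fold and 2.03-fold. Gstz1, an enzyme of tyrosine breakdown, read 46.9 and 33.4 in the labelled knockout, against 29.6 and 50.4 in wild type. Gstk1, of mitochondria and peroxisomes, was lower with heme in wild type by log2 -0.80. Gstp1, the pi-class enzyme, read 849 with heme and 622 in vehicle in the labelled knockout, against 868 and 583 in wild type.

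Of the glutathione peroxidases, Gpx1 and Gpx4 were nearly level across the arrays and Gpx3 was lower with heme. Gpx1 read 5623 with heme and 5343 in vehicle in the labelled knockout, against 5428 and 6099.8 in wild type, and Gpx4, which reduces lipid peroxides in membranes, read 943 and 886 against 928 and 835. Gpx3, the secreted peroxidase, read 213 with heme and 373 in vehicle in the labelled knockout, against 128 and 355 in wild type, 1.75-fold and 2.78-fold lower with heme. Glrx (log2 0.70 in the labelled knockout), Esd (0.54 in wild type) and Glrx2 (0.39 in wild type) had the next largest differences and did not reach 2-fold.

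Among the genes of supply and turnover, Anpep, a surface peptidase that can split the cysteinylglycine left when glutathione is degraded outside cells, read 999 with heme and 1966 in vehicle in the labelled knockout, against 912 and 2000.4 in wild type. Both heme values were near each other, and so were both vehicle values. The response was 1.97-fold lower in the labelled knockout and 2.19-fold lower in wild type. Applying quantile normalization again put the labelled knockout response past 2-fold as well. Dpep3 (log2 -0.88 in the labelled knockout in vehicle) and Chac2, which degrades glutathione in the cytosol (-0.85 with heme), were lower in the labelled knockout by less than 2-fold.

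Of the other Abcc transporters, Abcc5, an exporter of cyclic nucleotides, read 637 with heme and 478 in vehicle in the labelled knockout, against 577 and 283 in wild type. Abcc3, which exports organic anion conjugates, read 107 and 73.0 in the labelled knockout, against 98.2 and 45.2 in wild type. In both, the wild-type vehicle array was the lowest, and the response in wild type was 2.04-fold for Abcc5 and 2.17-fold for Abcc3. With 32 added to each signal, neither reached 2-fold. Abcg2 (log2 0.62) and Abcc6 (-0.53) had the next largest differences, both between genotypes with heme, and 6 of the 11 transporters measured were below the level threshold on all arrays.

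For the 3 genes with the largest average heme response, the nearest patterns over the 4 arrays were sought among 10541 other genes at level. Symbols of the Gm, Rik, Mir, Snor, Olfr, Vmn and LOC kinds were left out. The measure was the Euclidean distance between log2 values centred on each gene's mean. For Abcc1 the nearest was Sqstm1, the autophagy receptor p62, at a distance of 0.086, followed by the proteasome genes Psma5 (0.19) and Psmd3 (0.28), Procr (0.29) and Mllt11 (0.33). Sqstm1 read 1007 with heme and 399 in vehicle in the labelled knockout, against 1028 and 345 in wild type. For Gclm the nearest were Tnfsf4 (0.36), Sec24d (0.40), Psma5 (0.45), Snhg11 (0.45) and Abcc1 (0.46). For Gsta3 they were Uchl1 (0.51), Mlkl (0.56), Taf1a (0.58), Mllt11 (0.59) and Snhg11 (0.60). The vehicle signals of Uchl1, Taf1a and Tnfsf4, like those of Gsta3, were under the level threshold in both genotypes. With 4 arrays, many genes share a pattern of heme above vehicle, and the distances are descriptions.

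**Figure D5:**
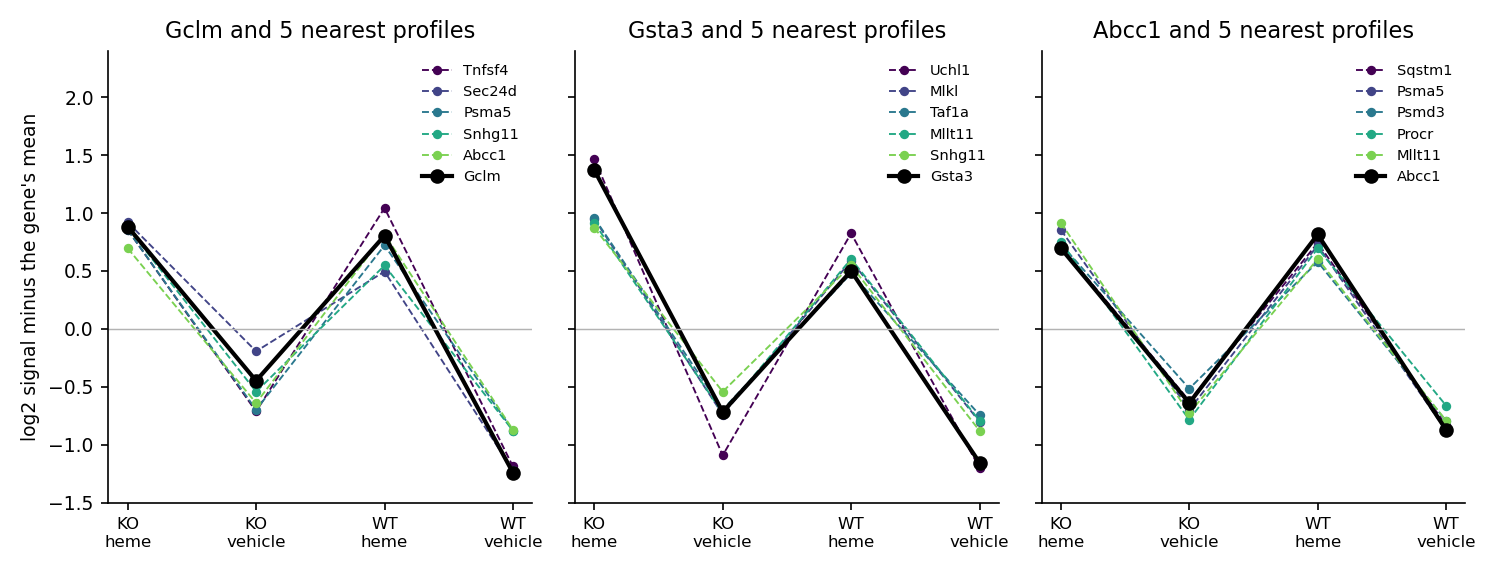
Log2 signal minus the gene's own mean over the 4 arrays for Gclm, Gsta3 and Abcc1 (black) and the 5 genes nearest to each (coloured, dashed). Sqstm1 follows Abcc1 at a distance of 0.086, and in each panel the heme arrays lie above the vehicle arrays.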

How the data were processed

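The authors deposited 1 value table with the intensity of 35556 probe sets on 4 arrays, made with RMA per the submitters' processing notes, and on a linear scale as the values show. RNA was labelled with biotin by an Ovation PicoSL kit, per the labels' protocols. The series' design text describes progenitors sorted from fetal liver chimeras, another RNA kit and the program ArrayStar, which does not match the sample labels. The sample labels were followed. No version, genome build or detection call is given in the sources used here.

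The platform annotation gave a single symbol to 21789 probe sets and several to 1621, and did not list 12146. The brightest probe set per gene was used, which left 19938 genes. Differences are of log2 values, with no scaling added. The 10 genes, the lists and the alternatives were chosen with earlier results of these data known. All 10 genes are named. From each list, up to 4 genes with the largest difference at level were named, plus Slc3a2, Gpx1, Gpx4 and Gstp1. The Gstm genes of the transferase list other than Gstm2 were named outside this rule, to be set beside Gstm1. A further 7 listed genes were not analysed here. Precision is limited by 1 array per group. Computation ran in Python 3.11.15 with matplotlib 3.10.9, statsmodels 0.14.6, pandas 2.3.3 and numpy 2.4.6.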

Additional observations from a re-analysis of the deposited data

Results flagged for a closer look

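Among 29 genes looked at, Gstz1 was the 1 whose heme responses ran in opposite directions in the genotypes. Each response was at level and larger than the robust SD over genes. They were log2 0.49 in the labelled knockout against -0.77 in wild type, a difference of 1.26. The same arrays give its genotype difference as 0.66 with heme and -0.59 in vehicle. The difference was not tested, and its signals, between 29.6 and 50.4, lie near the level threshold. Gstcd, a listed transferase outside those 29, met the same rule, at log2 -0.33 in the labelled knockout against 0.63 in wild type.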

How the results depend on the processing

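Calls were repeated at 3-fold and at 1.5-fold, without the level filter, with the level set at 106 (the 75th percentile), after repeated quantile normalization, after lowess centring, with 32 added to each signal and with the probe sets of a gene averaged. At 1.5-fold, 7 of the 10 genes were higher with heme in the labelled knockout and 8 in wild type, beside 5.03% and 4.99% of all genes at level. At 1.5-fold, 1 was higher in the labelled knockout with heme (Gsta3) and 3 in vehicle (Gclm, Gsr and Gstm1), beside 3.38% and 3.25%, and 2 had responses 1.5-fold smaller there (Gclm and Slc7a11), beside 5.15%. At 3-fold, 1 gene stayed higher with heme in the labelled knockout (Gsta3), and Gclm (4.13-fold), Abcc1 (3.22-fold) and Gsta3 (3.15-fold) in wild type. The shares of all genes at level were 0.184% and 0.297%. With heme in both cultures, Slc7a11 no longer counted as 3-fold lower in the labelled knockout, leaving 0. With 32 added to each signal, the median genotype difference in vehicle was 0.16 in place of 0.33. Of the 96 repeated counts and medians of the 10 genes, 88 stayed within 1.5 times of the value given. Many of these could not have moved. Averaging leaves genes with 1 probe set as they were, and a count of 0 cannot rise at 3-fold or at the higher level. No called difference of the 10 genes changed sign under repeated quantile normalization or lowess centring. Adding 32 to both signals of a comparison cannot change its sign, and averaging cannot change genes with 1 probe set. Those settings are therefore no check of sign. The background moved too: with 32 added, 58 genes were higher with heme in the labelled knockout and 50 in wild type, against 130 and 126. No alternative could leave out a replicate, since each group held 1 array. For the same reason no paired analysis was possible, and the labels give no replicate numbers that groups could share. Low signals such as those of Gsta3 in vehicle and Gsta4 have an unknown distance from background.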
